A study of Rattus norvegicus with 6 samples.

Results

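The Notch genes described here are 10 members of a signalling pathway, chosen by symbol: the receptors Notch1, Notch2, Notch3 and Notch4, the ligands Dll4 and Jag1, and the target genes Hes1, Hey1, Heyl and Nrarp. All 10 were matched among 32623 genes, and 7 of them passed the filter on low counts together with 12742 genes in all. RNA was sequenced from primary liver sinusoidal endothelial cells, the fenestrated cells that line the capillaries of the liver, isolated from Han Wistar rats. In the Exoliver perfusion device they were cultured alongside macrophages, stellate cells and hepatocytes for 48 h, with shear set to 1.15 dyn/cm2. The physiological group was held at 1 mmHg and the pathological group at 12 mmHg, with 3 libraries each. The sources used here do not give the age of the animals or the number of animals behind a library.

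Notch receptors sit in the cell membrane and are activated by ligands of the Delta-like and Jagged families on a neighbouring cell. Binding exposes the receptor to an ADAM protease and then to gamma-secretase, which frees the intracellular domain to enter the nucleus and join the DNA-binding protein RBPJ and a Mastermind coactivator at target genes. In endothelium the pathway is known for tip and stalk cell selection, arterial identity and responses to flow, and in the liver for sinusoidal endothelial differentiation and bile duct formation.

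The promoters of 2 targets are shown because their transcripts, Hes1 and Nrarp, had opposite signs in the pressure comparison and are both used as readouts of Notch activity. Neither passed the test, and the sign of Nrarp did not hold with each library left out. A link between promoter motifs and direction was not tested. RefSeq promoter windows of 300 bases (250 before to 50 after the start, build GRCr8) were found for 8 of the 10 genes; Dll4 and Hey1 had no entry. Windows are printed 5′ to 3′ on the gene's own strand. Capitals mark TGGGAA, the core of the RBPJ binding motif, searched on both strands. The Hes1 window lies at chr11:84212996-84213295 on the minus strand and the Nrarp window at chr3:28390495-28390794 on the plus strand.
Hes1: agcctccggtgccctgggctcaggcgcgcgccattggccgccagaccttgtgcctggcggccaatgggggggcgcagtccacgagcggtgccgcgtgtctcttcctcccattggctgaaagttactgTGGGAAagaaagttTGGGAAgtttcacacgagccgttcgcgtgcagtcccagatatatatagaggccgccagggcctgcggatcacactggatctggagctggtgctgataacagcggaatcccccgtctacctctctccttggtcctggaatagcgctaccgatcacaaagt
Nrarp: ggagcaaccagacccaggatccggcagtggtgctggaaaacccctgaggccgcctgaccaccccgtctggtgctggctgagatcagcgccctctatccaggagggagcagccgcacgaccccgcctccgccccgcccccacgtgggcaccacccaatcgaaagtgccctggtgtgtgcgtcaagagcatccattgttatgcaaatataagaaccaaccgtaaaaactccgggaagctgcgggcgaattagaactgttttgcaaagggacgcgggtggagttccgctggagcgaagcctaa
The Hes1 window held the core at positions 128 and 142, counted from 1 at the 5′ end of the window, which places the matches 14 bases apart and on the same strand. The first of them was also a match to the longer form GTGGGAA. No match was found in the Nrarp window or in that of Heyl. Among the 8 windows, those of Hes1, Notch4 and Notch3 held the core, which 25.7% of all 33469 promoter windows did. Windows with at least 2 matches, like those of Hes1 and Notch4, made up 3.85% of all windows, and windows with GTGGGAA, found among these genes in Hes1 alone, made up 6.29%. These are matches of letters and not measured binding sites. Only TGGGAA and GTGGGAA were searched, so other forms of the motif, in any of the windows, would be missed.

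No Notch gene passed the test between 12 and 1 mmHg. Of all 12742 tested genes, 0 (0%) had an adjusted p under 0.05 in edgeR's quasi-likelihood test with Benjamini-Hochberg adjustment, and 33 (0.259%) had an unadjusted p under 0.05, none of them among the 7 tested Notch genes. With DESeq2, 1 gene passed, the cyclin gene Ccnj, which is named here after its value was seen, and 178 had an unadjusted p under 0.05, Hes1 among them. limma-voom passed 0 genes, with 159 at an unadjusted p under 0.05. Of the 7 tested Notch genes, 5 had negative and 2 had positive log2 fold changes, with a median of -0.64, beside a median of 0.05 over all tested genes, of which 47.5% were negative. Levels below are CPM, counts relative to the library total after TMM scaling. On this scale no Notch gene had groups that did not overlap, which 4.60% of all tested genes had.

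The 6 libraries differed in more than pressure. Totals ran from 8925149 to 24025406 counts, and 10234 to 17189 genes had a count. Pecam1 was not matched to a symbol, and the 13 matched genes of a general endothelial list summed to between 1858 and 3231 CPM of unscaled totals at 1 mmHg and between 851 and 2554 CPM at 12 mmHg. Cdh5 (VE-cadherin, the adhesion protein of endothelial junctions) was present in every library, at 183 to 319 CPM. Tie1 was also steady, between 197 and 393 CPM. Every other detected gene of this list varied more, from Flt1 (31.8 to 97.8 CPM) to Kdr. Cldn5 had no counts in any library. Kdr stood at 43.6, 499 and 353 CPM at 1 mmHg and at 4.17, 13.6 and 484 CPM at 12 mmHg. A sinusoidal list of 11 genes summed to 1944, 4753 and 3362 CPM of unscaled totals at 1 mmHg. At 12 mmHg it summed to 986, 445 and 5343 CPM. A hepatocyte list of 20 genes summed to 298, 50417 and 35128 CPM in the 1 mmHg libraries (replicates 1 to 3) and to 444, 738 and 69934 CPM in the 12 mmHg libraries. Abundant transcripts were also missing from some libraries. Of 5722 genes with at least 20 CPM in both physiological replicate 1 and pathological replicate 1, 14.99% had 3 counts or fewer in physiological replicate 3 and 18.6% in pathological replicate 3, against 2.38% in physiological replicate 2 and 0.384% in pathological replicate 2. A count at or near 0 in those libraries does not show that a Notch gene was not expressed. In such mixed RNA, fewer endothelial cells and less RNA per endothelial cell cannot be told apart.

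**Figure D1:**
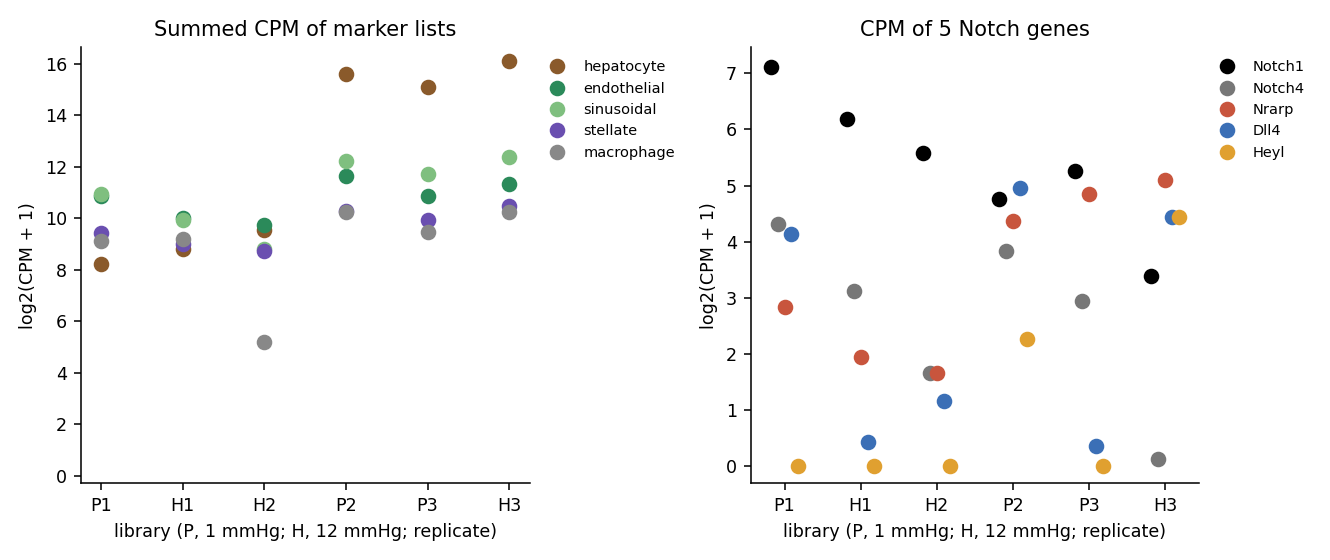
Left, summed CPM of 5 marker lists (totals unscaled) and, right, TMM-scaled CPM of 5 Notch genes, both as log2(CPM + 1), in each library (P, 1 mmHg; H, 12 mmHg; the digit is the replicate). The hepatocyte list is far higher in P2, P3 and H3 than in P1, H1 and H2, Nrarp is also higher in those 3 libraries, and Heyl was counted in P2 and H3 alone.

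Among the receptors, Notch1, the broadly expressed receptor that is required for vascular development, stood at 137, 26.0 and 37.4 CPM in physiological replicates 1, 2 and 3 and at 71.8, 46.8 and 9.51 CPM in pathological replicates 1, 2 and 3. The highest value belonged to a 1 mmHg library and the lowest to a 12 mmHg library, and the groups overlapped. Group means were 66.7 ± 60.8 and 42.7 ± 31.4 CPM (SD, n = 3), with a log2 fold change of -0.64 (95% CI -3.00 to 1.71). Physiological replicate 1 decided the sign, since the log2 fold change was 0.52 without it. The 3 libraries poor in hepatocyte transcripts had higher Notch1 than the libraries rich in them, whatever the pressure, and the part of hepatocyte RNA in this was not tested.

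Notch4, a receptor largely restricted to endothelium, stood at 18.9, 13.2 and 6.67 CPM at 1 mmHg and at 7.73, 2.18 and 0.0942 CPM at 12 mmHg. Only pathological replicate 1 reached into the range of the 1 mmHg libraries, and the lowest value was a single count in pathological replicate 3. Means were 12.9 ± 6.12 and 3.33 ± 3.95 CPM (SD, n = 3), with a log2 fold change of -1.95 (-6.36 to 2.45 at 95% confidence, edgeR unadjusted p = 0.337). The sign held when each library was left out in turn, with a lowest value of -3.50 (pathological replicate 1 left out) and a highest of -1.39 (pathological replicate 3 left out).

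Notch2, the receptor associated with bile duct formation, was concentrated in the first replicate of each pressure. It stood at 37.1, 3.92 and 2.27 CPM at 1 mmHg and at 49.0, 3.07 and 0 CPM at 12 mmHg. The 2 high libraries were those with the most genes detected, 1 at each pressure, and the other 4 lay far below them. The log2 fold change was 0.27 (95% CI -4.73 to 5.27), and it moved to -3.22 when pathological replicate 1 was left out and to 2.60 when physiological replicate 1 was. Notch3, the receptor of vascular smooth muscle and pericytes, had 6 counts in physiological replicate 1, 10 in pathological replicate 1 and 0 in the other 4 libraries, and was not tested. Of the smooth muscle and pericyte list of 8 genes, Myh11, a contractile myosin, stood at no more than 4.65 CPM in any library, while Tagln (transgelin, an actin-binding protein shared with stellate cells) reached 152 CPM and Mcam 36.1 CPM.

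Dll4, the endothelial ligand that restrains sprouting, was split within both groups. It stood at 16.5, 30.2 and 0.284 CPM in physiological replicates 1, 2 and 3, the last from 2 counts, and at 0.356, 1.23 and 20.8 CPM in pathological replicates 1, 2 and 3. There were thus 2 high libraries and 1 low one at 1 mmHg, and 1 high and 2 low ones at 12 mmHg. Means were 15.7 ± 14.99 and 7.47 ± 11.6 CPM (SD, n = 3). The log2 fold change was -1.07 (95% CI -5.84 to 3.69). Without pathological replicate 3 it was -4.30, and without physiological replicate 2 it was -0.26. Set beside the hepatocyte list, physiological replicate 2 and pathological replicate 3 were rich in hepatocyte transcripts and high in Dll4, and pathological replicates 1 and 2 were poor in them and low in Dll4. Physiological replicate 1, poor and high, and physiological replicate 3, rich and low, went the other way. The part of hepatocyte RNA and of missing transcripts in the Dll4 values was not tested.

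Jag1, a ligand shared by endothelium, stellate cells and bile duct cells, stood at 12.6, 6.91 and 17.7 CPM at 1 mmHg and at 12.2, 7.61 and 1.22 CPM at 12 mmHg. Apart from pathological replicate 3, with 13 counts, the libraries of both groups covered the same range. The log2 fold change was -0.82 (95% CI -4.47 to 2.82), and -0.33 without pathological replicate 3. Krt19, a keratin of bile duct cells, stood between 0.164 and 38.8 CPM at 1 mmHg and between 0 and 0.662 CPM at 12 mmHg. Pdgfrb, a receptor of stellate cells, stood between 4.36 and 60.9 CPM at 1 mmHg and between 0 and 0.899 CPM at 12 mmHg. The 9 biliary genes summed to 16.02, 138 and 34.1 CPM of unscaled totals at 1 mmHg and to 27.6, 6.55 and 42.2 CPM at 12 mmHg, with 7 of them, Krt19 included, at 0 in pathological replicate 3. The 13 matched stellate genes summed to 695, 1251 and 984 CPM and to 516, 419 and 1441 CPM, with Pdgfrb at 0 in pathological replicate 3. This stellate sum joined genes with opposite profiles. Reln had 15736, 1364 and 181 counts at 1 mmHg and 11901, 9187 and 10 at 12 mmHg. Lrat had 34, 10449 and 4630 counts at 1 mmHg and 63, 174 and 9741 at 12 mmHg. The part of these cells in the Jag1 values was not tested.

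**Figure D2:**
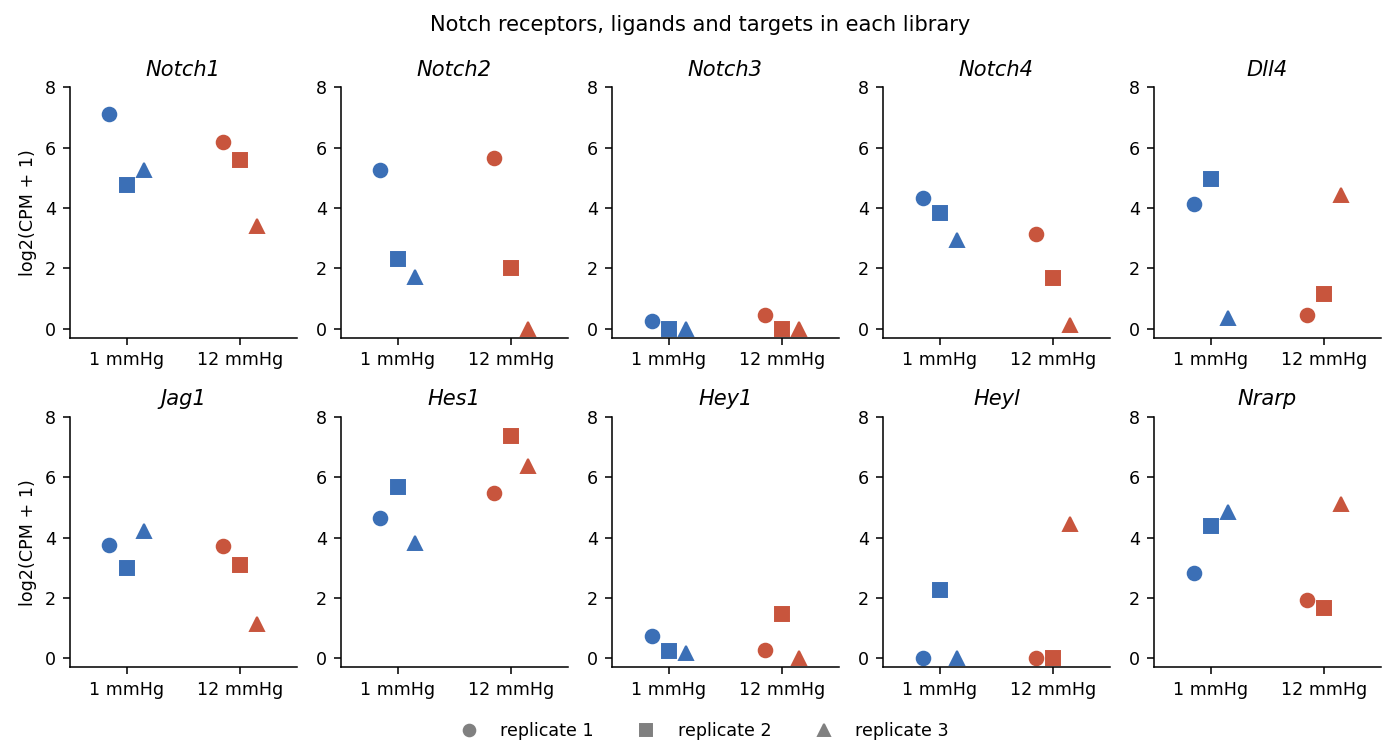
Level of each Notch gene as log2(CPM + 1) at 1 mmHg (blue) and 12 mmHg (red), 1 point per library, with the replicate given by its shape. Groups overlap in every panel, Hes1 has its 2 highest libraries at 12 mmHg, and Dll4 has high and low libraries at both pressures.

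Among the targets, Hes1, a transcriptional repressor of the hairy and enhancer of split family, had the smallest p of the tested Notch genes and the 77th smallest of all 12742. It stood at 24.4, 49.9 and 13.1 CPM in physiological replicates 1, 2 and 3 and at 43.2, 165 and 81.5 CPM in pathological replicates 1, 2 and 3. Pathological replicates 2 and 3 exceeded every 1 mmHg library, and pathological replicate 1 exceeded 2 of them. Means were 29.1 ± 18.9 and 96.5 ± 62.2 CPM (SD, n = 3). The log2 fold change was 1.73 (95% CI -0.27 to 3.73), with an unadjusted p of 0.0816 and an adjusted p of 1 in edgeR. DESeq2 gave a log2 fold change of 1.84 with an unadjusted p of 0.0411 and an adjusted p of 1. Leaving out pathological replicate 2 gave the lowest log2 fold change, 1.10, and leaving out physiological replicate 2 the highest, 2.36. Whether the groups overlapped depended on the scaling: they overlapped with TMM and median-ratio factors but not with unscaled totals, on which 0.973% of tested genes were higher at 12 mmHg without overlap.

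Hes1 was also set against endothelial RNA in the same library, a scale chosen after the values were seen that needs no library total. Per 1000 counts of the 13 endothelial genes, Hes1 had 16.5, 15.7 and 5.55 counts at 1 mmHg and 49.4, 173 and 29.6 counts at 12 mmHg. Every 12 mmHg library lay above every 1 mmHg library on this scale. The endothelial list used as its base was itself low in pathological replicates 1 and 2, at 1034 and 851 CPM of unscaled totals. It stood at 2554 CPM in pathological replicate 3 and between 1858 and 3231 CPM at 1 mmHg. The part of these low endothelial sums in the separation was not tested. Notch4 had 12.8, 4.16 and 2.83 counts per 1000 endothelial counts at 1 mmHg and 8.83, 2.29 and 0.0343 at 12 mmHg, which overlapped. Hes1 was the 1 gene of the 10 whose groups did not overlap on this scale, on which 4.54% of tested genes were higher at 12 mmHg without overlap.

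Nrarp, a small ankyrin repeat protein that is induced by Notch and dampens it, did not share the Hes1 pattern. It stood at 6.16, 19.7 and 27.7 CPM at 1 mmHg and at 2.85, 2.18 and 33.4 CPM at 12 mmHg. The 3 libraries rich in hepatocyte transcripts held the 3 highest values, the highest of them at 12 mmHg. The log2 fold change was -0.48 (95% CI -4.00 to 3.05). It was -2.83 without pathological replicate 3 and 0.03 without pathological replicate 2. The part of other cells in the Nrarp values was not tested.

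The hairy-related repressors Hey1 and Heyl were below the filter and were not tested. Hey1, an endothelial Notch target, had 20, 3 and 1 counts in the 1 mmHg libraries and 6, 38 and 0 counts in the 12 mmHg libraries, so no library exceeded 1.80 CPM. Heyl, a target best known from smooth muscle and pericytes, had 66 counts in physiological replicate 2 and 220 in pathological replicate 3, or 3.80 and 20.7 CPM, and 0 in the other 4 libraries. The smooth muscle and pericyte list summed to 101 and 165 CPM of unscaled totals in those libraries and to between 4.61 and 73.5 CPM in the others, and its part in the Heyl counts was not tested. In the libraries with Heyl counts, physiological replicate 2 and pathological replicate 3, Tagln had 995 and 1610 counts, Mcam 430 and 245, Acta2 224 and 0, Rgs5 87 and 0, and Myh11 0 and 26. Cspg4 and Cnn1 were at 0 in both, and Lmod1 had 0 and 1 counts.

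With the summed hepatocyte list as a term in the edgeR fit, no Notch gene passed the test, and the log2 fold changes were -1.20 for Notch1 (unadjusted p = 0.0562), -2.79 for Notch2, -3.82 for Notch4, -2.22 for Dll4, -1.69 for Jag1, 1.77 for Hes1 (unadjusted p = 0.0805) and -0.73 for Nrarp. The median of all tested genes was -0.24 in that fit, against 0.05 without the term. Among these genes the sign of Notch2 changed with the term, from 0.27.

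**Figure D3:**
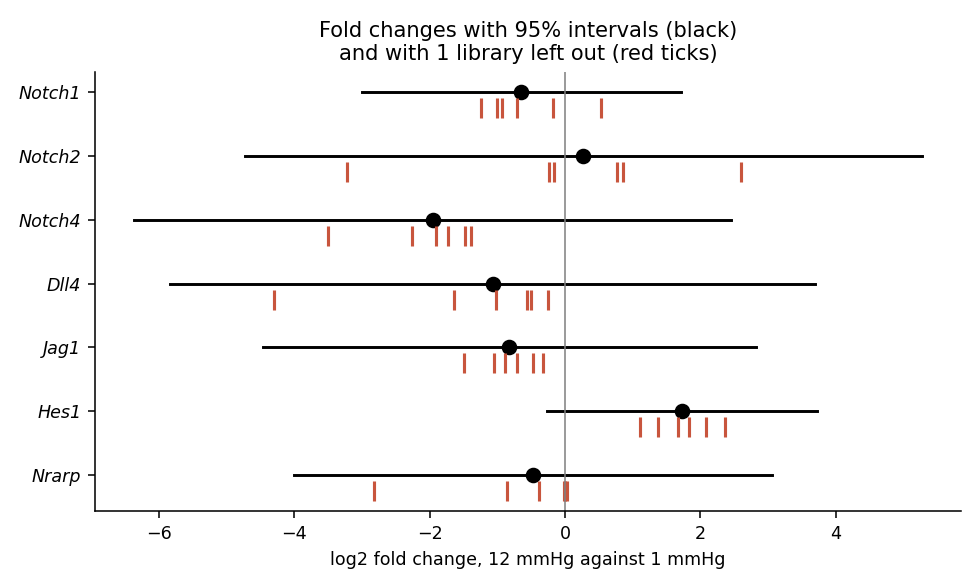
Log2 fold change (12 mmHg against 1 mmHg, edgeR) of the 7 tested Notch genes with its 95% interval in black, and the value with each of the 6 libraries left out as red ticks. Every interval includes 0. The ticks of Hes1 (1.10 to 2.36), Notch4 (-3.50 to -1.39), Dll4 (-4.30 to -0.26) and Jag1 (-1.49 to -0.33) stay on 1 side. Those of Notch1, Notch2 and Nrarp fall on both sides.

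The balance between members was read from ratios of their counts within a library, which do not depend on scaling. These ratios compare libraries and not the levels of the genes, whose lengths differ. They were computed after the values were seen, and no test was made. Of 21 ratios between the 7 tested genes, 2 did not overlap between the pressures, or 9.52%, beside 5.21% of all pairs of tested genes, and the 21 ratios share genes. The ratio of Notch1 to Notch4 counts was 7.23, 1.96 and 5.62 at 1 mmHg and 9.29, 21.5 and 101 at 12 mmHg. The 12 mmHg libraries thus held fewer Notch4 counts for each Notch1 count, the extreme resting on 1 count of Notch4. The ratio of Notch4 to Hes1 counts was 0.776, 0.266 and 0.511 at 1 mmHg and 0.179, 0.0132 and 0.00116 at 12 mmHg.

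**Figure D4:**
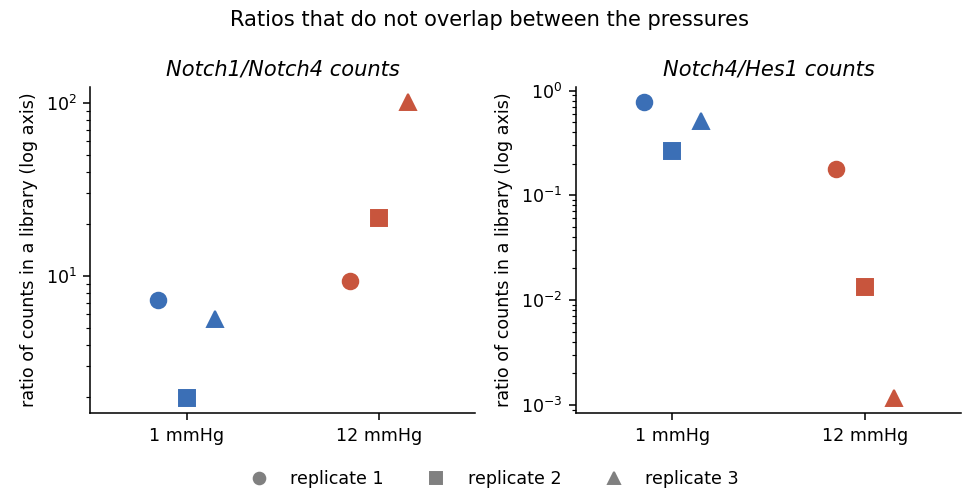
Counts of Notch1 over Notch4 (left) and of Notch4 over Hes1 (right) in each library, on log axes, at 1 mmHg (blue) and 12 mmHg (red), with replicates by shape. They are drawn because they were the 2 of 21 ratios without overlap, chosen after the values were seen, and both contain Notch4. Of all pairs of tested genes, 5.21% had no overlap. The highest Notch1 to Notch4 ratio was 7.23 at 1 mmHg, and the lowest was 9.29 at 12 mmHg.

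The libraries with sample numbers 2 and 3, physiological and pathological replicate 1, had the most genes detected and were both poor in hepatocyte transcripts. They were set side by side after the values were seen, as 1 library per pressure with no replicate check, and exact binomial intervals cover counting error only. Dll4 had 505 counts at 1 mmHg and 10 at 12 mmHg, 46.5-fold lower after scaling (95% interval 25.1 to 97.5). A difference of at least 10-fold in that direction was seen for 1.04% of all tested genes in this pair. Notch4 was 2.45-fold lower (2.09 to 2.87) and Nrarp 2.16-fold lower (1.66 to 2.84), where 8.30% of tested genes were lower by at least 2-fold. Notch1 was 1.90-fold lower (1.80 to 2.01), and Hey1 had 20 and 6 counts, 3.07-fold lower (1.19 to 9.33). Hes1 went the other way, at 1.77 times its 1 mmHg level (1.62 to 1.94), as did Notch2 at 1.32 times (1.22 to 1.43). Neither reached the 2-fold rise that 5.20% of tested genes had. No share was computed for differences under 2-fold, such as those of Hes1, Notch2 and Notch1. Jag1 stood at 0.966 times its 1 mmHg level (0.833 to 1.12). Endothelial RNA also differed within this pair, with the endothelial list at 1882 CPM of unscaled totals at 1 mmHg and 1034 CPM at 12 mmHg. Per 1000 endothelial counts, Notch1 had 92.2 and 82.1 counts, Notch4 12.8 and 8.83, and Nrarp 4.16 and 3.26. On that scale Dll4 had 11.2 and 0.407 counts, Jag1 8.54 and 14.0, Notch2 25.0 and 56.0, and Hes1 16.5 and 49.4. In the pair with sample numbers 11 and 9, Dll4 also had fewer counts at 12 mmHg, 26 against 525 at 1 mmHg. In the pair with sample numbers 22 and 23 it had more, 221 against 2.

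The wider pathway was described with 59 further genes, of which 57 were matched and 45 tested. Of the 45, 26 had positive and 19 negative log2 fold changes, with a median of 0.08 beside 0.05 for all genes, and none had an edgeR unadjusted p under 0.05. The groups did not overlap for 3 of them, all lower at 12 mmHg, where 3.05% of all tested genes were lower in that way. Of the other ligands, Dll1 stood at 1.38, 16.4 and 0.284 CPM at 1 mmHg and at 2.14, 2.27 and 0.0942 CPM at 12 mmHg, with 285 counts in physiological replicate 2 and at most 60 elsewhere. Dll3 and Jag2 had at most 31 and 37 counts in a library, and the atypical ligand Dlk1 had none in any.

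Of the proteolysis genes, 6 of 8 were positive and 2 negative. Adam17, a sheddase that can cut Notch, stood at 210, 56.3 and 10.8 CPM at 1 mmHg and at 199, 264 and 66.2 CPM at 12 mmHg. Psen2, a catalytic subunit of gamma-secretase, did not overlap, with 32.1, 38.3 and 39.4 CPM at 1 mmHg and 24.3, 23.1 and 18.3 CPM at 12 mmHg. Its log2 fold change was -0.74 (95% CI -2.77 to 1.28).

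All 5 tested glycosyltransferase genes, whose products modify Notch and set its ligand preference or folding, had negative values, with a median of -0.60. Rfng (radical fringe) did not overlap, at 10.1, 13.9 and 44.7 CPM at 1 mmHg and at 8.83, 8.37 and 1.69 CPM at 12 mmHg, with a log2 fold change of -1.86 (95% CI -5.12 to 1.40). Lfng (lunatic fringe) stood at 4.91, 4.78 and 0.142 CPM and at 3.88, 1.99 and 0 CPM. None of the 5 had an unadjusted p under 0.05 in edgeR.

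Among 4 tested genes of ligand endocytosis, 2 were positive and 2 negative. Epn1 (epsin, an endocytic adaptor) was the third gene without overlap, at 121, 151 and 132 CPM at 1 mmHg and 114, 97.4 and 98.1 CPM at 12 mmHg, with a log2 fold change of -0.39 (95% CI -1.67 to 0.89). Mib2, a ubiquitin ligase for Notch ligands, stood between 25.3 and 32.2 CPM at 1 mmHg and between 20.01 and 71.7 CPM at 12 mmHg.

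Of the nuclear genes, 7 of 10 tested were positive. Rbpj itself is carried by 2 gene identifiers in the files, so reads may be divided between near-identical copies and its values are uncertain. ENSRNOG00000046327 had 4823, 213 and 151 counts at 1 mmHg and 3864, 2231 and 4 at 12 mmHg, with a log2 fold change of 0.34 (95% CI -3.35 to 4.03). ENSRNOG00000007797, the identifier that entered the counts by role, was below the filter, with 88, 1 and 0 counts and 67, 0 and 0 counts. Snw1, a splicing and Notch coactivator protein, stood at 109, 107 and 109 CPM at 1 mmHg and at 154, 216 and 59.5 CPM at 12 mmHg. The acetyltransferase gene Kat2b stood between 0 and 25.9 CPM and between 8.23 and 51.1 CPM. In the receptor turnover list 6 of 8 tested genes were positive. The largest value there was that of Dtx4, a deltex ubiquitin ligase, with a log2 fold change of 5.07 (95% CI -2.72 to 12.85) that came from 246 counts in pathological replicate 3 against at most 20 elsewhere. Dtx3 had 178, 279 and 1 counts at 1 mmHg and 100, 72 and 0 counts at 12 mmHg.

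Of other targets and vessel-type genes, 5 of 9 tested were positive. Ephb4, a receptor of venous endothelium, stood at 25.4, 49.3 and 96.7 CPM at 1 mmHg and at 7.69, 4.45 and 36.4 CPM at 12 mmHg, with a log2 fold change of -1.82 (95% CI -4.43 to 0.79). Only pathological replicate 3 lay within the 1 mmHg range. Sox17, an arterial transcription factor linked to Notch, stood at 14.0, 47.0 and 23.3 CPM and at 3.53, 7.66 and 15.7 CPM, with a log2 fold change of -1.65 (95% CI -4.47 to 1.18). As with the main set, neither passed the test. For both genes, every library rich in hepatocyte transcripts lay above every library poor in them. The part of hepatocyte RNA in the Ephb4 and Sox17 values was not tested.

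**Figure D5:**
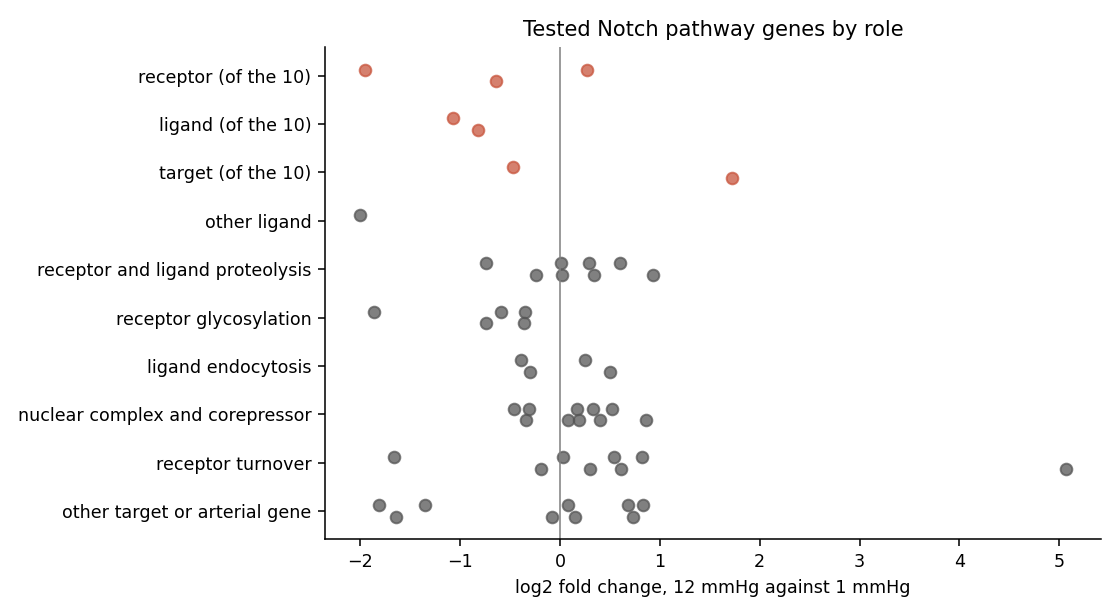
Log2 fold change (12 mmHg against 1 mmHg) of the 7 tested Notch genes (red) and 45 further pathway genes (grey), 1 point per gene, by role. The glycosylation genes all lie below 0, the other roles lie on both sides except for the ligands, and the point at 5.07 is Dtx4.

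For each tested Notch gene the 2 genes with the most similar profile over the 6 libraries were found by the root mean square difference of centred log2(CPM + 1). This is a description over 6 libraries that share their depth and cell mixture. The genes were picked for their likeness, so a pattern shared with a member follows from that choice. The nearest to Hes1 were Rgs2 and Scfd1, at differences of 0.22 and 0.38. Rgs2, an inhibitor of G protein signalling, stood at 20.4, 46.1 and 16.03 CPM at 1 mmHg and at 38.3, 151 and 58.3 CPM at 12 mmHg. Its libraries fell in the same order as those of Hes1. The nearest to Dll4 were Nr5a2 and Angpt2, at 0.45 and 0.52, and Angpt2, an endothelial ligand of the Tie2 receptor, stood at 24.7, 16.2 and 0 CPM at 1 mmHg and at 0.997, 1.70 and 16.6 CPM at 12 mmHg. Like Dll4, by which it was picked, Angpt2 divided into 3 high and 3 low libraries. For Nrarp the nearest were Cebpd and Ctdsp1 (0.18 and 0.19), for Notch1 Syne1 and Ankrd50 (0.15 and 0.17), and for Notch4 Ltbp1 and Mipep (0.25 and 0.33). For Jag1 they were Otud5 and Fiz1 (0.14 and 0.18), and for Notch2 Cpt1a and Zmiz1 (0.42 and 0.49).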

How the data were processed

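Polyadenylated RNA (25 ng of total RNA per library, per the labels' protocols) was sequenced single-end. The authors deposited expected counts per gene for each of 6 libraries, per the file headers. The submitters' processing notes name STAR, RSEM and limma but no version. The sources used here do not give the build, annotation or strand setting, and RSEM divides reads among matching genes.

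Expected counts were rounded. Libraries were grouped by the labelled pressure and replicates numbered in deposition order. The test was edgeR 4.0.16 (quasi-likelihood, TMM, filterByExpr, no covariate, two-sided) in R 4.3.3, with Benjamini-Hochberg adjustment over 12742 genes. Intervals come from that fit. Alternatives used DESeq2 1.42.0 and limma 3.58.1. Of 159 listed symbols, 5 were not matched, and 197 of 32623 rows carry no symbol. Members, lists and alternatives were chosen with earlier results of these data known. Named genes were the members, all other ligands, the 2 genes with the smallest p in each role, the 2 nearest profiles of each tested member and fixed markers. Of the fixed markers, Alb was counted only within the hepatocyte list. Outside these rules, Kdr, Tie1, Flt1, Cldn5, Reln, Lrat, Tagln, Mcam, Acta2, Rgs5, Cspg4, Cnn1 and Lmod1 were named from the marker lists with their values known. Ccnj was named from the DESeq2 result.

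On simulated counts for the 12 against 1 mmHg comparison at a dispersion of 0.05, the fit recovered 30 of 50 genes with a 2-fold difference and 50 of 50 with a 4-fold one, and called 5 genes that had not been changed, out of 14170. At the common dispersion of these libraries, 1.94, 0 of 50 genes changed 16-fold were recovered among 13172. Each simulation used a single dispersion, so its result does not carry over to every gene. In the real fit the standard error of the log2 fold change was 0.87 for Hes1 and 2.17 for Notch2. The median over all tested genes was 1.72. No 2 libraries agreed within sampling noise (chi-square per degree of freedom from 74.9 to 1100). No source says whether each library is its own animal or culture. The p-values therefore cover the spread among these 6 libraries alone, part of which may be technical.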

Additional observations from a re-analysis of the deposited data

How the results depend on the processing

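Over 17 alternatives for each of the 7 tested Notch genes, 2 of them added after seeing the data, 107 of 119 log2 fold changes kept their direction and 12 reversed. Of the 105 values with a test, from 15 of the alternatives, 0 passed the threshold. Hes1, Notch4 and Dll4 kept their direction in all 17. The count of genes past the threshold was 0 in every setting except DESeq2, where it was 1. Notch2 reversed with limma-voom (-2.35), with a term for hepatocyte transcripts (-2.79), with a replicate block of neighbouring sample numbers (-1.35) and without physiological replicate 2 (-0.16), physiological replicate 3 (-0.24) or pathological replicate 1 (-3.22). Its highest value with a library left out was 2.60, in the direction of the full fit. Notch1 and Jag1 reversed with limma-voom sample weights (0.53 and 0.028) and, added after seeing the data, per endothelial list count (0.21 and 0.30). Leaving out 1 library moved Notch1 between -1.25 and 0.52, reversed without physiological replicate 1, and Nrarp between -2.83 and 0.026, reversed without pathological replicate 2. The cause was not tested. No label states a pairing, and the replicate block passed 0 genes.

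The median of all genes was 0.05 with TMM, 0.15 with median-ratio factors, -0.01 with unscaled totals, 0.41 with sample weights and -0.24 with the hepatocyte term, under which 12 of 45 further pathway genes were positive against 26. With sample weights, 2528 genes had an unadjusted p under 0.05, against 33. With GTGGGAA in place of TGGGAA, 1 of 8 promoter windows held the RBPJ motif against 3. The spread between libraries and the missing abundant transcripts limit every value.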
